A study of Mus musculus with 4 samples.

Results

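The Toll-like receptors of mouse macrophages were read from a table of gene expression by their symbols. The set was Tlr1 to Tlr9 and Tlr13, which gave 10 of the 16375 genes listed, and all 10 had a mean of at least 100 fragments over the libraries, as did 11260 genes in all. The macrophages were generated from mouse bone marrow cells in medium with M-CSF, and RNA sequencing was done on 4 groups with 1 library each. WT and LNCKO macrophages were each kept as a control or given butyrate, where LNCKO stands for lncLy6c knockout and butyrate is a short-chain fatty acid made by gut bacteria, used at 500 µM for 24 h. The comparisons ask whether butyrate is followed by other receptor levels, and whether this depends on the long non-coding RNA lncLy6c. No group had a replicate, so no difference was tested, and each interval given covers counting error only. According to the methods, the knockout was made by CRISPR and Cas9 on a C57BL/6J background, and wild-type mice were C57BL/6 of either sex. The genotype of a library was taken from its title. The titles were relied on for LNCKO, since NC and R3 in the names of these libraries give neither genotype nor treatment, and the lncLy6c transcript itself was not analysed here. Of the Y-linked genes Ddx3y, Eif2s3y, Kdm5d and Uty, the WT libraries held 16 to 85 fragments each and the LNCKO libraries 2051 to 7764, so genotype and the sex of the donors cannot be told apart.

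Toll-like receptors recognise molecules of microbes and start the innate immune response of macrophages. Those at the cell surface bind components of bacterial walls and flagella, whereas those in endosomes bind nucleic acids that have been taken up. On binding, a receptor recruits adaptors such as Myd88 or Ticam1, kinases of the Irak family and Tbk1 are activated, and the transcription factors NF-kappaB and Irf proteins turn on genes of cytokines, chemokines and type I interferon.

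All 10 receptors were detected in every library, with 549 to 26409 fragments each. No receptor differed by 1.5-fold or more with butyrate in WT, with butyrate in LNCKO, or between LNCKO and WT with or without butyrate. In the same comparisons, 3.38% of the 11260 genes tested were higher and 2.92% lower by 1.5-fold or more with butyrate in WT, and 1.67% were higher and 0.933% lower with butyrate in LNCKO. Between LNCKO and WT, the corresponding shares were 1.61% and 1.93% without butyrate and 3.32% and 3.21% with butyrate. These counts were 381 and 329 genes with butyrate in WT, 463 and 263 when libraries were scaled by their median ratio, and 324 and 435 when FPKM were rescaled to 1000000 per library. At such shares, 0 of 10 receptors past 1.5-fold is close to the background.

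Genome positions are those of GENCODE M21 on GRCm38. Tlr1 and Tlr6 lie next to each other on the minus strand of chromosome 5, Tlr1 from 64924679 to 64933563 and Tlr6 from 64952031 to 64960097. The lowest position of Tlr6 is 18468 bases past the highest of Tlr1. Tlr7 (167304929 to 167330558) and Tlr8 (167242696 to 167264329) lie on the minus strand of the X chromosome, 40600 bases apart, and Tlr13 (106143204 to 106160493) lies on its plus strand. The other receptors are autosomal and apart from each other. Tlr2 was at 83836272 to 83841767 on chromosome 3 and Tlr3 at 45395665 to 45411080 on chromosome 8, both on the minus strand. Tlr4 was at 66827584 to 66930284 on chromosome 4, Tlr5 at 182954788 to 182976044 on chromosome 1 and Tlr9 at 106222598 to 106226883 on chromosome 9, all on the plus strand.

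Tlr1 and Tlr6, each of which pairs with Tlr2 to bind bacterial lipopeptides, are close copies. Their coding sequences were identical at 75.5% of 2364 aligned bases, against 53.1% to 62.9% for the other pairs. Gaps were left out of these shares, and Tlr7 and Tlr8 were at 57.1%, so the order of the other pairs was not read as likeness. The transcripts of Tlr1 and Tlr6 shared 259 stretches of 100 bases, the read length, which was 7.89% of the stretches of Tlr1 and 7.09% of those of Tlr6. These stretches came from 3 identical runs of 229, 208 and 119 bases inside both reading frames. The longest run lies at 64925537 to 64925765 in Tlr1 and at 64953828 to 64954056 in Tlr6, and is shown in full because a read within it matches both genes, and only a mate outside the run could tell them apart:
Tlr1 and Tlr6: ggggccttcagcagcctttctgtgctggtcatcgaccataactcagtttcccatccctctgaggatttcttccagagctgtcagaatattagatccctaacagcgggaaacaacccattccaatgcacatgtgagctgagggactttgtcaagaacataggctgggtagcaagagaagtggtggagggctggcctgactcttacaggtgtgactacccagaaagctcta
Fragments of Tlr1 and Tlr6 may have been split or lost there, so their sum was also used. The exons of Tlr3 overlapped those of Gm45542, a gene on the opposite strand, by 381 bases, and 188 stretches of 100 bases were shared with it. Gm45542 was not used here, and whether the counting used strand is not given in the sources used here. No other receptor overlapped a gene or shared such a stretch.

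Because the deposited FPKM divide by the whole genomic span of a gene, introns included, levels of different receptors were compared as fragments per kilobase of exons per 1000000 fragments. This takes all fragments of a gene to lie in its exons, and whether fragments in introns were counted was not tested. The order of the levels and their place among protein-coding genes rest on it. Fragments summed over genes exceeded the recovered library total in each library, as with 56531103 against 56392028 in WT control. The difference is large for some receptors, since exons make up 81.1% of the span of Tlr9 and 5.41% of that of Tlr4. As deposited, the mean FPKM of Tlr9 was 74.0 and that of Tlr4 0.909. Per kilobase of exons, the mean levels over the 4 libraries were 91.1 and 16.8.

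The endosomal receptors Tlr13, Tlr9 and Tlr7 were the most abundant per kilobase of exons. Tlr13, which recognises bacterial ribosomal RNA, was at 90.8 in WT control and 89.5 with butyrate, and at 93.5 in LNCKO control and 93.6 with butyrate. Tlr9, the receptor for DNA with unmethylated CG dinucleotides, was at 91.1, 94.4, 86.8 and 92.3 in the same order of libraries. Tlr7, a receptor for single-stranded RNA, was at 95.2, 83.8, 84.8 and 87.9. These receptors had ranges that overlapped, so their order was not separated by the spread over the libraries, and each mean lay above that of 96.9% to 97.1% of the protein-coding genes listed. Tlr8, a close relative of Tlr7, was lower, at 51.5, 54.5, 48.1 and 48.8. Tlr3, which binds double-stranded RNA, was the least abundant endosomal receptor, at 11.0, 10.6, 9.99 and 11.2, with a mean above that of 72.4% of protein-coding genes.

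Of the surface receptors, Tlr2 and Tlr1 were the most abundant per kilobase of exons. Tlr2, which recognises bacterial lipopeptides, was at 45.4 in WT control and 42.6 with butyrate, and at 40.0 in LNCKO control and 36.5 with butyrate. Tlr1 was at 43.0, 39.6, 42.1 and 39.9. The values of Tlr2 spread more widely over the libraries than those of any other receptor, with the highest 1.24 times the lowest, and enclosed all values of Tlr1. Tlr4, the receptor for lipopolysaccharide, was at 17.7, 17.0, 16.8 and 15.7, and Tlr6 at 10.2, 10.02, 9.82 and 9.74. The values of Tlr6 lay within 1.05 times of each other, and those of Tlr3 and Tlr6 overlapped. Tlr5, the receptor for flagellin, was the least abundant receptor, at 2.03, 2.40, 2.22 and 2.01, with a mean above that of 43.4% of protein-coding genes. Tlr5 was also the only receptor whose values did not give whole fragments with its span of 21257 bases. They did with 21658 bases, which gave 549, 680, 567 and 631 fragments.

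**Figure D1:**
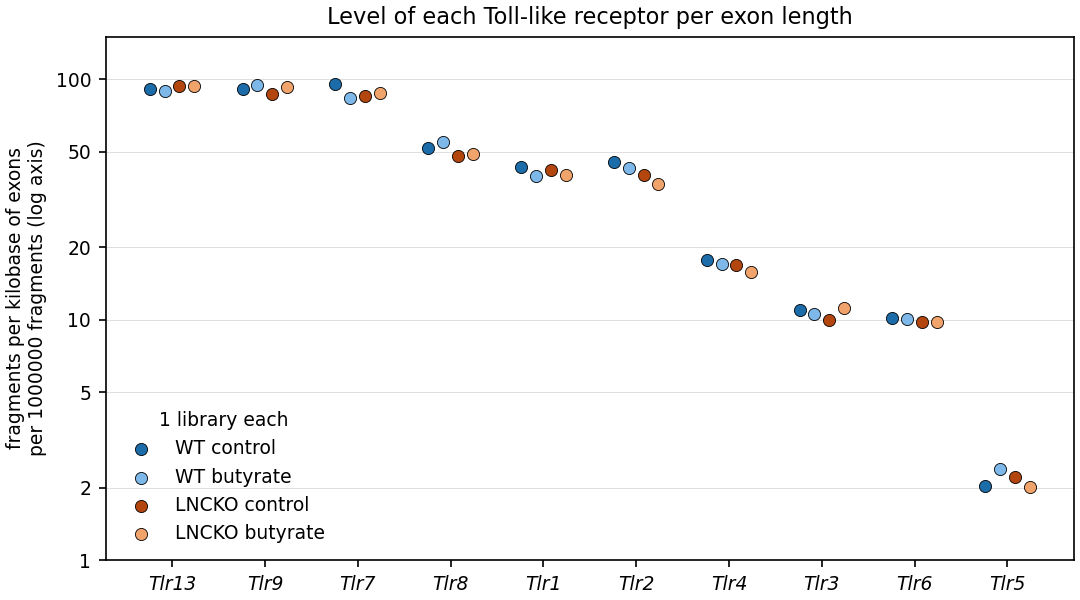
Level of each receptor in fragments per kilobase of exons per 1000000 fragments (log axis), with 1 point for each of the 4 libraries. Tlr13, Tlr9 and Tlr7 lie between 83.8 and 95.2 in every library, Tlr8 between 48.1 and 54.5, and Tlr5 between 2.01 and 2.40, and the points of a receptor lie close together compared with the distance from Tlr7 to Tlr5.

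In the order of mean levels, Tlr13, Tlr9 and Tlr7 were followed by Tlr8, then by Tlr1 and Tlr2, Tlr4, Tlr3 and Tlr6, and Tlr5. Neighbours in this order whose ranges did not overlap were Tlr7 and Tlr8, Tlr8 and Tlr1, Tlr2 and Tlr4, Tlr4 and Tlr3, and Tlr6 and Tlr5. The 5 endosomal receptors together made up 74.2% of the summed level of all 10 in WT control and 74.9% with butyrate, and 74.4% in LNCKO control and 76.3% with butyrate. The summed level of all 10 was 458, 444, 434 and 438 in these libraries, so it was highest in WT control.

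The sequence around the start of the transcript is given for Tlr13 and Tlr9, which had the highest mean levels, and for Tlr5, which had the lowest, from RefSeq on GRCm38.p6, with 250 bases before to 50 bases after the start. Such promoters were found for 8 of the 10 receptors, all but Tlr4 and Tlr7, with a pair each for Tlr1 and Tlr6, which gave 10 sequences. Capitals mark GAGGAA, the purine-rich box of ETS factors such as the macrophage factor PU.1, on either strand:
Tlr13 (X chromosome, 106143025 to 106143324, plus strand): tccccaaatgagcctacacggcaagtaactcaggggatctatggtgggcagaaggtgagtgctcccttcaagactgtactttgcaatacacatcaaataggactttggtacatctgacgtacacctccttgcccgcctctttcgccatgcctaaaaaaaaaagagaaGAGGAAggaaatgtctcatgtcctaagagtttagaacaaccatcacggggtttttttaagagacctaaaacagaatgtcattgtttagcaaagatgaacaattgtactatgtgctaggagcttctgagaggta
Tlr9 (chromosome 9, 106222348 to 106222647, plus strand): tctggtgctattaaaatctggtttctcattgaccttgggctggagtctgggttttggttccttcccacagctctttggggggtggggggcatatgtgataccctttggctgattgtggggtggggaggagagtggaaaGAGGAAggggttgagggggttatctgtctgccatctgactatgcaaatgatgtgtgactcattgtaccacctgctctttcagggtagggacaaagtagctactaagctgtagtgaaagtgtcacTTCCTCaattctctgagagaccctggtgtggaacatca
Tlr5 (chromosome 1, 182954538 to 182954837, plus strand): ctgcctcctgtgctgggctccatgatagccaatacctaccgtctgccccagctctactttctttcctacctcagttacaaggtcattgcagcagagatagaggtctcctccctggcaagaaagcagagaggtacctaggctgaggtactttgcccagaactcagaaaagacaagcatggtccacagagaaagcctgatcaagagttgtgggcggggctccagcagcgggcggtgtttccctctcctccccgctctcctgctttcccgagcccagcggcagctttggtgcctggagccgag
GAGGAA was found in 4 of the 10 sequences, those of Tlr13, Tlr8 and Tlr9 and one of Tlr1, and in 28.3% of all 32851 promoters of this length. Tlr9 held it on both strands and Tlr5 did not hold it. The interferon-stimulated response element, read as GAAA and GAAA with 2 bases between them, had 2 overlapping matches in one promoter of Tlr6 and was found in 3.44% of all promoters. The letters TATAAA were found in one promoter of Tlr6 and in that of Tlr8 (13.6% of all promoters), GGG and TTTCC with 2 bases between them in that of Tlr3 (1.63%) and TGANTCA in that of Tlr9 (7.81%). All letters were searched on both strands, and a match is a description of the sequence only. The count of CG dinucleotides over the 10 sequences ranged from 0 for Tlr9 and 1 for Tlr8 to 11 for Tlr2, and the median promoter held 7.

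In WT macrophages, the median log2 ratio of butyrate to control was -0.038 over the 10 receptors, and -0.056 over all genes tested. Of the receptors, 3 lay above 0 and 7 below, while 60.8% of all genes tested lay below. When libraries were scaled by their median ratio, 6 receptors lay above 0 and 4 below. The lowest was Tlr7, for which 21916 fragments in WT control and 20247 in WT butyrate gave a log2 ratio of -0.18 (95% counting interval -0.21 to -0.16). The highest was Tlr5, with 549 and 680 fragments and a log2 ratio of 0.24 (0.074 to 0.40). Tlr5 and Tlr7 thus had the widest distance from 0, and 68.4% of all genes tested were within the distance of Tlr5. Among surface receptors, Tlr1 had a log2 ratio of -0.12 (-0.16 to -0.074), Tlr2 of -0.091 (-0.14 to -0.045) and Tlr4 of -0.065 (-0.12 to -0.011). Tlr8 with 0.082 (0.043 to 0.12) and Tlr9 with 0.050 (0.021 to 0.080) were above 0. The counting intervals of Tlr3, Tlr6 and Tlr13 held 0. The sum of Tlr1 and Tlr6 gave -0.098 (-0.14 to -0.058).

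In LNCKO macrophages, the median log2 ratio of butyrate to control was -0.0046 over the receptors and -0.023 over all genes tested, with 5 receptors on either side of 0. The 5 receptors above 0 were the endosomal ones and the 5 below 0 were those of the surface, while 57.9% of all genes tested lay below 0. Tlr3 was highest, with 2775 fragments without and 3827 with butyrate and a log2 ratio of 0.17 (0.097 to 0.24). Tlr9 was at 0.089 (0.059 to 0.12) and Tlr7 at 0.051 (0.023 to 0.079), whereas the intervals of Tlr8 and Tlr13 held 0. The lowest values were those of Tlr5, at -0.14 (-0.31 to 0.024), and Tlr2, at -0.13 (-0.18 to -0.085). Tlr4 was at -0.095 (-0.15 to -0.040), Tlr1 at -0.078 (-0.12 to -0.033) and Tlr6 at -0.012 (-0.099 to 0.075). The split by compartment rests in part on values near 0, since Tlr6 was at 0.011 when libraries were scaled by their median ratio, and Tlr8 and Tlr13 were at -0.0013 and -0.019 when FPKM were rescaled to 1000000 per library. In WT the split was not seen with the FPKM as deposited, where 2 of 5 endosomal receptors lay above 0 and 1 of 5 surface receptors. When libraries were scaled by their median ratio, Tlr3, Tlr8, Tlr9 and Tlr13 lay above 0 in WT, at 0.0035, 0.14, 0.11 and 0.035. Tlr7 lay below 0 there, at -0.13, and the surface receptors Tlr5 and Tlr6 lay above 0, at 0.29 and 0.032.

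**Figure D2:**
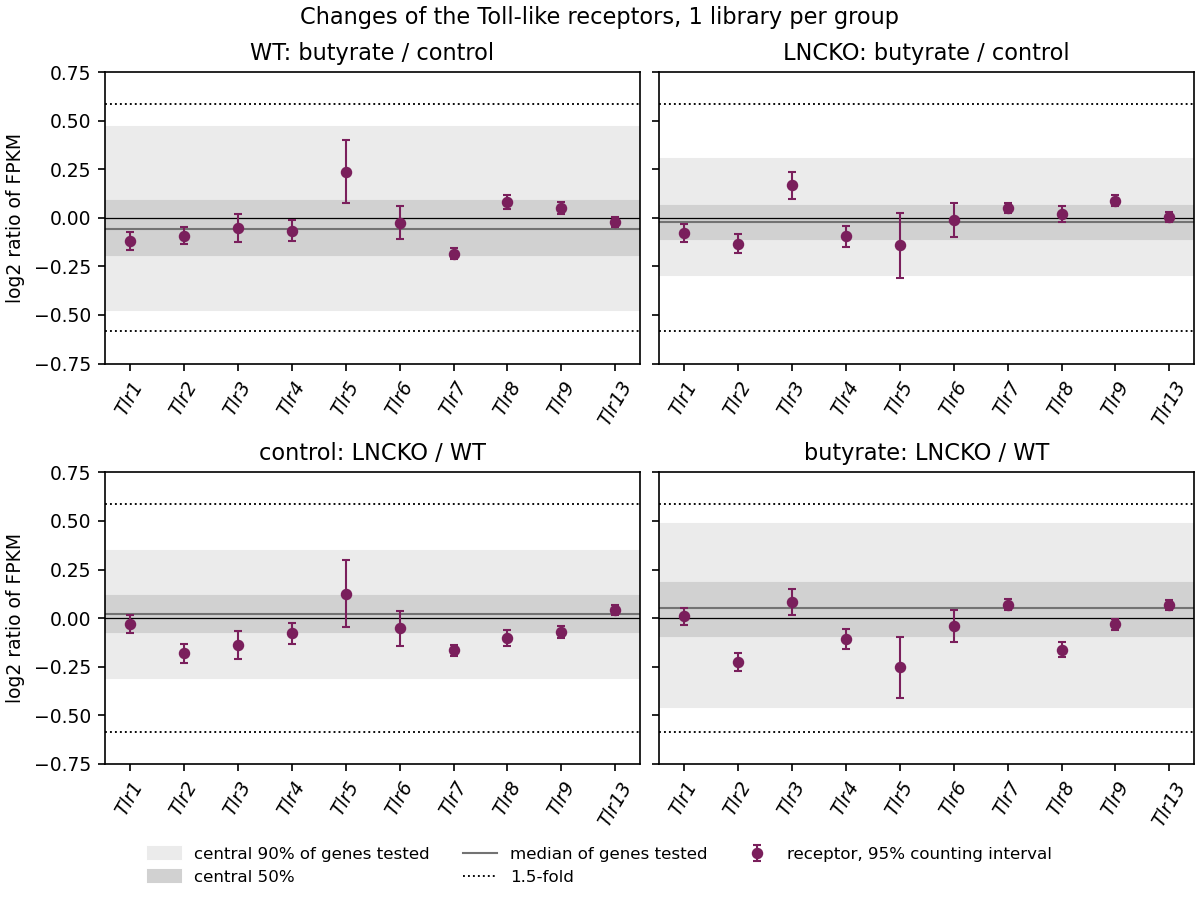
Log2 ratio of FPKM for each receptor in the 4 comparisons (points, with 95% counting intervals as bars), over the median (grey line), the central 50% (dark band) and the central 90% (light band) of all genes tested. Dotted lines mark 1.5-fold, and every receptor lies between them and within the light band in all 4 panels.

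The butyrate change of a receptor in WT less that in LNCKO ranged from -0.24 for Tlr7 to 0.38 for Tlr5 on the log2 scale, and this difference was not tested. For Tlr7, WT control was the library that stood apart, at 95.2 per kilobase of exons, while WT butyrate and both LNCKO libraries lay between 83.8 and 87.9. For Tlr3 the difference was -0.22, and its level in LNCKO control, 9.99, was the lowest. The other 7 receptors differed between the genotypes by 0.061 or less. Both butyrate libraries lay above both control libraries for Tlr9 and below them for Tlr1. Over all genes tested, 11.9% lay above and 24.6% below in this way. The order of Tlr9 did not hold when FPKM were rescaled to 1000000 per library, where its log2 ratio with butyrate in WT was -0.0050.

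**Figure D3:**
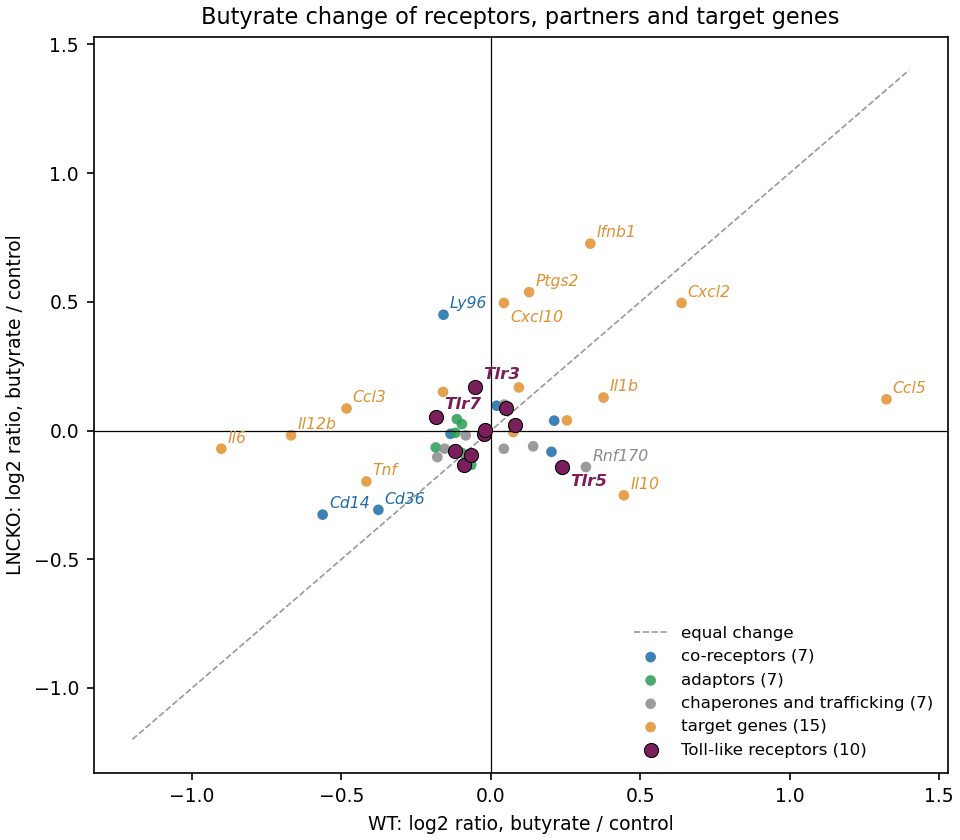
Log2 ratio of FPKM with butyrate in WT (x axis) and in LNCKO (y axis) for the 10 receptors and for their co-receptors, adaptors, chaperones and target genes, 1 point for each gene. Receptors lie within 0.24 of 0 on both axes, whereas target genes reach 1.32 (Ccl5) and -0.90 (Il6) in WT, and genes off the dashed line had unequal values in the genotypes.

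LNCKO was then set against WT. Without butyrate, 8 of 10 receptors lay below 0, with a median log2 ratio of LNCKO to WT of -0.075, while the median of all genes tested was 0.019 and 43.8% of them lay below 0. Tlr2 was lowest, with 7717 fragments in WT and 6436 in LNCKO and a log2 ratio of -0.18 (-0.23 to -0.13). Tlr7 followed with -0.17 (-0.19 to -0.14), Tlr3 with -0.14 (-0.21 to -0.065) and Tlr8 with -0.10 (-0.14 to -0.060). Only Tlr5, at 0.13 (-0.046 to 0.30), and Tlr13, at 0.042 (0.015 to 0.070), lay above 0. With butyrate, 6 of 10 receptors lay below 0 and the median was -0.037, against 0.053 and 39.3% below 0 over all genes tested. This count was 7 when libraries were scaled by their median ratio and 4 when FPKM were rescaled to 1000000 per library. Tlr5 was lowest at -0.25 (-0.41 to -0.096), followed by Tlr2 at -0.23 (-0.27 to -0.18) and Tlr8 at -0.16 (-0.20 to -0.12). The highest were Tlr3 at 0.081 (0.014 to 0.15), Tlr7 at 0.069 (0.042 to 0.096) and Tlr13 at 0.066 (0.040 to 0.092).

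Over all 4 libraries, both LNCKO libraries lay below both WT libraries for Tlr2, Tlr4, Tlr6 and Tlr8 and above them for Tlr13. Over all genes tested, 12.5% lay below and 23.3% above in this way. The counting intervals of Tlr6 held 0 both without butyrate (-0.14 to 0.036) and with it (-0.13 to 0.043). When FPKM were rescaled to 1000000 per library, the log2 ratio of Tlr6 with butyrate was 0.0023, so its order did not hold. The sum of Tlr1 and Tlr6 gave -0.036 (-0.077 to 0.0043) without and -0.0018 (-0.041 to 0.037) with butyrate. WT control held the highest level of 5 receptors (Tlr1, Tlr2, Tlr4, Tlr6 and Tlr7) and the lowest of 0. The corresponding share over all genes tested is not given here, so this count is a description only. Of all genes tested, 60.8% lay below 0 with butyrate in WT, and 43.8% between LNCKO and WT without butyrate. WT control enters both the butyrate comparison in WT and the genotype comparison without butyrate, so these are not independent of each other.

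Tlr7, Tlr8 and Tlr13 are X-linked, and the genotypes differed in Y-linked genes. Without butyrate, the log2 ratio of LNCKO to WT was -0.17 for Tlr7, -0.10 for Tlr8 and 0.042 for Tlr13, while the median was 0.0027 over 338 X-linked genes and 0.020 over 10917 autosomal genes. With butyrate the values were 0.069, -0.16 and 0.066, and the medians 0.095 and 0.052. The X-linked receptors thus lay on both sides of 0 in either comparison.

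Mouse macrophages can carry further Toll-like receptors, of which Tlr11 and Tlr12, receptors for profilin of protozoa, were listed. Tlr11 had 78, 108, 54 and 54 fragments, under the minimum for comparison. Tlr12 had 4.23 fragments per kilobase of exons per 1000000 in WT control and 3.22 with butyrate, and 3.06 in LNCKO control and 3.46 with butyrate, which lies between Tlr5 and Tlr6. Its log2 ratio with butyrate was -0.40 in WT and 0.18 in LNCKO, and WT control held the highest value.

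The partners of the receptors were described from lists of 71 genes in all, of which 69 were tested and 54 were not target genes. None of these 54 was past 1.5-fold with butyrate in either genotype. Over all genes tested, 3.38% were past 1.5-fold higher and 2.92% lower in WT, and 1.67% and 0.933% in LNCKO. Of the co-receptors, Cd14, which hands lipopolysaccharide to Tlr4, had a level per kilobase of exons of 88.6 in WT control and 59.98 with butyrate, and of 95.6 in LNCKO control and 76.3 with butyrate. Its log2 ratio with butyrate was -0.56 in WT and -0.33 in LNCKO, both farther from 0 than that of any receptor. Ly96, which binds lipopolysaccharide together with Tlr4, had levels of 14.0, 12.6, 10.4 and 14.2, with log2 ratios of -0.16 and 0.45. Cd180 and its partner Ly86, relatives of Tlr4 and Ly96, were abundant, at 84.6 to 98.0 and 84.0 to 92.8. Cd36, which presents lipids to Tlr2 and Tlr6, was the only one of the 54 genes past 1.5-fold between the genotypes. It had levels of 37.2, 28.6, 56.5 and 45.7, with a log2 ratio of LNCKO to WT of 0.61 without and 0.67 with butyrate. Between the genotypes, 1.61% of all genes tested were past 1.5-fold higher and 1.93% lower without butyrate, and 3.32% and 3.21% with butyrate.

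Of the 7 adaptors tested, 7 lay below 0 with butyrate in WT, with a median log2 ratio of -0.11, beside 60.8% and -0.056 over all genes tested. In LNCKO, 4 lay below 0, with a median of -0.0089, beside 57.9% and -0.023. The adaptor of all receptors here but Tlr3, Myd88, had log2 ratios of -0.18 in WT and 0.052 in LNCKO, and Ticam1, the adaptor of Tlr3, of -0.18 and -0.066. Ticam2 and Tirap, which bridge Tlr4 to these adaptors, had -0.097 and -0.11 in WT and -0.087 and 0.044 in LNCKO. Sarm1 had at most 5 fragments and was not tested. The chaperone Unc93b1, which carries the endosomal receptors out of the endoplasmic reticulum, was at 284 to 301 per kilobase of exons, above every receptor, with log2 ratios of -0.084 in WT and -0.019 in LNCKO. Cnpy3 and Hsp90b1, which fold most of the receptors, had 0.044 and -0.16 in WT and -0.071 and -0.071 in LNCKO. Downstream, 15 kinases and ubiquitin ligases, 8 transcription factors and 10 negative regulators were tested, and 0 of them were past 1.5-fold in any of the comparisons. Their medians with butyrate were -0.089, -0.035 and -0.078 in WT and 0.012, 0.037 and -0.027 in LNCKO. Over all genes tested, 0.933% to 3.38% were past 1.5-fold in a given direction and comparison.

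Some target genes of the pathway were past 1.5-fold. Of 15 tested, Ccl5, a chemokine for T cells, and Cxcl2, a chemokine for neutrophils, were past 1.5-fold higher with butyrate in WT, and the cytokines Il6 and Il12b past 1.5-fold lower. In this comparison, 3.38% of all genes tested were past 1.5-fold higher and 2.92% lower. Ccl5 had levels per kilobase of exons of 401 in WT control and 1005 in WT butyrate, and of 422 and 459 in the LNCKO libraries. Its log2 ratio with butyrate was 1.32 in WT and 0.12 in LNCKO. Cxcl2 had log2 ratios of 0.64 and 0.50, Il6 of -0.90 and -0.071, and Il12b of -0.67 and -0.019. Il6 rested on few fragments, with 146 and 82 in WT and 284 and 332 in LNCKO. In LNCKO, the interferon gene Ifnb1 was the only target past 1.5-fold with butyrate, at 160 and 325 fragments and a log2 ratio of 0.73. There, 1.67% of all genes tested were past 1.5-fold higher and 0.933% lower. Against WT, Il6 and Ptgs2, which makes prostaglandins, were past 1.5-fold higher in LNCKO without butyrate (1.04 and 0.76) and with butyrate (1.87 and 1.17). With butyrate, Ccl3 was also higher (0.76) and Ccl5 lower (-1.13). The shares of all genes tested past 1.5-fold higher and lower were 1.61% and 1.93% without butyrate, and 3.32% and 3.21% with butyrate.

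The cells were labelled as bone marrow-derived macrophages, and all 9 macrophage markers of a list with Csf1r, Adgre1 and C1qa were present, with summed levels per kilobase of exons of 2268 in WT control and 2545 with butyrate, and of 2197 in LNCKO control and 2237 with butyrate. Markers of other cells of the bone marrow were present as well. All 8 neutrophil and granulocyte precursor markers were above 0 in each library, with sums of 7489.9, 9158, 6361 and 6141, and so were all 7 B cell markers, with sums of 609.8, 472, 622 and 626. The 6 plasmacytoid dendritic cell markers summed to 877, 852, 832 and 963, largely through Bst2, which macrophages express as well. The 5 conventional dendritic cell markers summed to 11.7 to 14.8, and 5 T and NK cell markers to 0.829 to 2.74. B cells, plasmacytoid dendritic cells and neutrophils carry some of the same receptors as macrophages. In these bulk libraries, fewer cells of a type and less RNA per cell cannot be told apart.

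Marker sums differed between the libraries beside some of the receptor values. With butyrate in WT, Tlr7 was at -0.18, Tlr1 at -0.12, Tlr2 at -0.091 and Tlr9 at 0.050. The log2 ratio of the B cell sum was -0.37, with 7 of 7 markers below 0, and that of the macrophage sum 0.17 (6 of 9 above 0). The neutrophil sum was at 0.29 (5 of 8 above 0), with S100a8 and S100a9 the largest terms. Of its other markers, Camp, Ngp and Ltf lay below 0, at -0.45, -0.35 and -0.19. Ly6g, Elane and Mpo lay above 0, at 1.22, 0.68 and 0.31. The plasmacytoid dendritic cell sum, of which Bst2 is the largest term, was at -0.042, with a median of -0.32 over its 6 markers and 4 of them below 0. In LNCKO the same sums were at 0.0083, 0.026 and -0.051, and the plasmacytoid dendritic cell sum at 0.21, with a median of 0.068 and 5 of 6 above 0. Between LNCKO and WT with butyrate, where Tlr2 was at -0.23 and Tlr9 at -0.032, the B cell sum was at 0.41 and the macrophage sum at -0.19. The neutrophil sum was at -0.58, with a median of -0.45 over its 8 markers and 6 of them below 0. Camp and Ngp lay above 0, at 0.32 and 0.060. The plasmacytoid dendritic cell sum was at 0.18, with 6 of 6 markers above 0. Without butyrate, the neutrophil sum was at -0.24, the macrophage sum at -0.046 and the B cell sum at 0.029. The part of these cells in the receptor values was not tested.

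**Figure D4:**
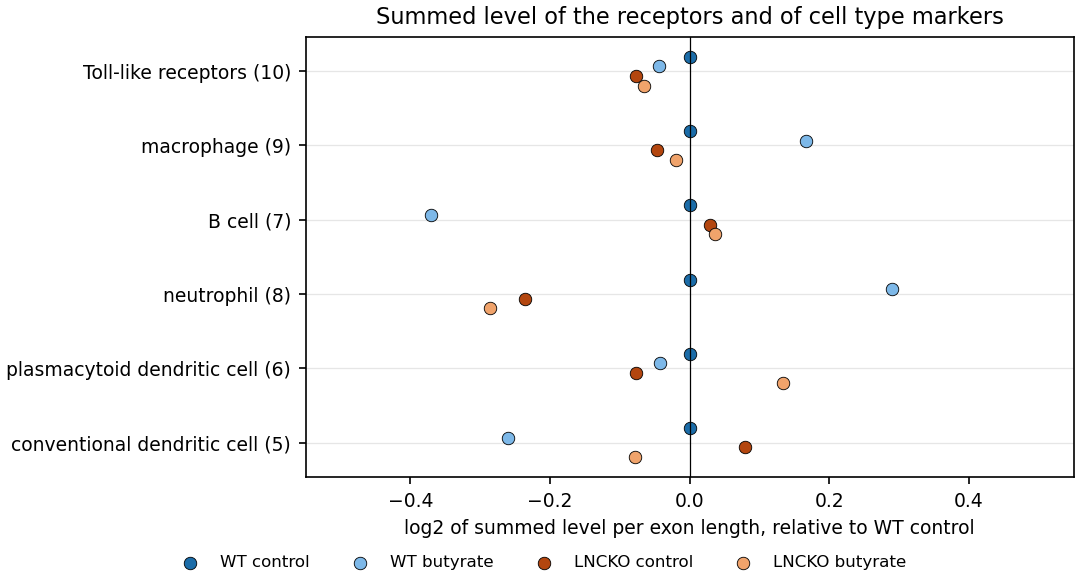
Summed level per kilobase of exons of the 10 receptors and of the marker lists (number of genes in brackets), as log2 relative to WT control, 1 point for each library. The receptor sums lie within 0.08 of WT control, whereas the B cell sum is at -0.37 in WT butyrate. The neutrophil sum, of which S100a8 and S100a9 are the largest terms, is at 0.29 in WT butyrate.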

How the data were processed

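RNA sequencing of macrophages from bone marrow was analysed in 4 groups with 1 library each. The authors deposited FPKM values per gene and library. The submitters' processing notes list STAR 2.5.0c, Picard 1.126, bedtools 2.17.0 and HTSeq 0.6.0 with GRCm38, whereas the methods name a provider's platform; the annotation release is not given in the sources used here. The methods give TRIzol and MGISEQ-2000 sequencing with paired reads of 100 bases, the labels RNeasy, TruSeq and Illumina.

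The FPKM were found to use the whole genomic span. With GENCODE M21 spans, the library total that turned most values into whole fragments was 56392028 for the control and 59195293 for the butyrate library of WT, and 53363944 and 65521713 for those of LNCKO, and 98.4% of 16342 matched genes were whole within 0.01 fragments, against 6.88% with exon lengths. Levels were recomputed per kilobase of merged exons, taking all fragments to lie in exons, which was not tested. Changes were log2 ratios of FPKM without a pseudocount, among genes with a mean of at least 100 fragments, with exact (Clopper-Pearson) 95% intervals of the fragments, which are not independent molecules. Since 1 library per group allows no test, a gene was called past 1.5-fold, and no p-value was computed. The text names all receptors, the list genes past 1.5-fold, chosen co-receptors, chaperones and adaptors, Tlr11 and Tlr12. The receptors and lists were chosen with earlier results of these data known. The order of the libraries in pairs was looked at after seeing the values. The steps were tested on simulated data. Alternatives were pseudocounts of 1 and 0.1, 2 other scalings, other filters on low values, other folds and other lengths. Python 3.11.15, numpy 2.4.6, pandas 2.3.3, scipy 1.17.1, Biopython 1.88 and matplotlib 3.10.9 were used.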

Additional observations from a re-analysis of the deposited data

Results flagged for a closer look

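Tlr7 was listed because its values moved in opposite directions in the genotypes and both counting intervals left out 0. Its log2 ratio of butyrate to control was -0.18 in WT and 0.051 in LNCKO. The difference was not tested, since each group held 1 library. Its level per kilobase of exons was 95.2 in WT control and lay between 83.8 and 87.9 in the other libraries. No group held enough libraries for a search for outliers.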

How the results depend on the processing

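The count of receptors past 1.5-fold was 0 in both directions in all 4 comparisons under each alternative, and so was that past the lower fold tried, which 478 to 1266 of the 11260 genes passed in one direction. The median over the receptors moved with the scaling: with butyrate in WT it was 0.018 when libraries were scaled by their median ratio and -0.094 when FPKM were rescaled to 1000000 per library, and between LNCKO and WT with butyrate it was -0.089 with the median ratio. Rescaling also put that last median at 0.0068, and it moved the median of all genes tested to -0.11 with butyrate in WT. Of 200 values of single receptors under alternatives, 173 lay no farther from the main value than its counting interval reached and 27 moved; the sign differed in 13, all with a main size of at most 0.053. The filter of a mean FPKM of at least 1 left 8 receptors, without Tlr4 and Tlr5. The order of the levels was the same with the exons of the longest transcript, except that Tlr7 and Tlr9 changed places; by the deposited FPKM, Tlr9 came first and Tlr2 ranked above Tlr7.

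Over all genes tested, counts past 1.5-fold ranged from 105 to 381 over the directions and comparisons, from 11 to 64 with a pseudocount of 1, from 37 to 195 with 0.1, from 18 to 118 for the 6801 genes whose FPKM averaged 1 or more, and from 546 to 1105 for the 13485 genes averaging 10 or more fragments. Between LNCKO and WT with butyrate, 374 higher and 362 lower became 304 and 436 with the median ratio and 444 and 324 after rescaling. No paired analysis was possible because each group held 1 library, and a library could not be left out without emptying its group. For Tlr5, with 549 to 680 fragments, counting error alone allowed a log2 ratio in WT from 0.074 to 0.40.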
